A study of Caenorhabditis elegans with 2 samples.

Results

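The 10 genes described here encode Argonautes of Caenorhabditis elegans: prg-1, hrde-1, csr-1, wago-1, wago-4, alg-1, alg-2, nrde-3, rde-1 and ergo-1. They are a named list out of 19973 protein-coding genes on the nuclear chromosomes, and the question was where tagged ALY-2, a worm relative of the Aly/REF adaptors that help export mRNA, was found along them. ChIP-seq, in which DNA bound by a protein is pulled down and sequenced, was done on mixed-sex L4 larvae of strain OP217, with the antibody given as aly-2. All animals carried unc-119(ed3) III and the transgene ddIs172, which makes ALY-2 fused at its C-terminal end to GFP-FLAG, and the promoter of the transgene is not given. The 2 biological replicates came from this 1 line, so no condition was compared. A whole larva mixes germline and somatic tissue, and the peak lists do not say which cells a peak came from or how strongly a gene is expressed, so the tissue label could not be checked against markers.

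Argonautes are proteins that hold a small RNA and use it to find matching transcripts. In C. elegans, ALG-1 and ALG-2 carry microRNAs, PRG-1 carries piRNAs in the germline, and ERGO-1 and RDE-1 hold primary small interfering RNAs. HRDE-1, WAGO-1, WAGO-4, CSR-1 and NRDE-3 hold the secondary small RNAs that RNA-dependent RNA polymerases make, HRDE-1 acting in germline nuclei and NRDE-3 in somatic nuclei. For the comparison of germline with somatic genes, prg-1, hrde-1, csr-1, wago-1 and wago-4 were taken as germline and alg-1, alg-2 and nrde-3 as somatic. The genes ergo-1 and rde-1, which act in both or by stage, were put in neither class.

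A peak was assigned to a gene when it overlapped the gene body, the 1000 bp upstream or the 500 bp downstream. The optimal list holds the 193 ce11 peaks past the authors' threshold on the irreproducible discovery rate, a measure of how well a peak's rank is reproduced. The permissive lists hold 3341 peaks for both replicates combined, 17453 for replicate 1 and 29384 for replicate 2. The signal value is the authors' own value per peak, on a scale that is not stated, and it is read here within a list. Read depth is unknown. The members were chosen with these peaks known, so every value below is a description and no test was made.

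Of the 10 Argonaute genes, 3 had an optimal peak, namely prg-1, hrde-1 and alg-1. In each of them the strongest peak lay in the 3' UTR, and prg-1 and hrde-1 each had a further optimal peak in a coding exon. Among all protein-coding genes 1.27% had an optimal peak in the same window. Among the 5236 genes with a body of 3039 to 9550 bp, the length range of the members, the share was 1.78%. The members were picked from these lists, so nothing is read from the difference.

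The sequences under these summits show the strongest places in the 3' UTRs of hrde-1 and alg-1 and in the hrde-1 coding region. They are from the WBcel235 assembly (ce11), written 5′ to 3′ along the transcript. For the hrde-1 coding peak, chrIII:4175019-4175219 on the minus strand is shown with the summit at the middle base. The csr-1 stretch, chrIV:7959492-7959692 on the plus strand, surrounds the summit of the member peak closest below the optimal threshold. It holds 4 glycine or arginine codons among 68 (5.88%), the lowest share of the 12 combined peaks with a coding summit, while another csr-1 peak holds 33.8% and the optimal coding peak of prg-1 19.1%. In both, capitals mark the codons of glycine and arginine.

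hrde-1 coding exon: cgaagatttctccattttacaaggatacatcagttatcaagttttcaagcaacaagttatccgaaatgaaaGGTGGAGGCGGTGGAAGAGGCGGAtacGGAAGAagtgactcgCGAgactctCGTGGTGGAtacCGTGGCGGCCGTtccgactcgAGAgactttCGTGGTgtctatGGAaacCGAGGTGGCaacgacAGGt
csr-1 coding exon: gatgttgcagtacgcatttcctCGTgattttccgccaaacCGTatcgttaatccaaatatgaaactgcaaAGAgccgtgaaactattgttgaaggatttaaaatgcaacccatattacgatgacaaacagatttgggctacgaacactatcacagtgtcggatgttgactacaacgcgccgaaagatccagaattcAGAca

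The 3' UTR summits of hrde-1 (chrIII:4172489-4172518, minus strand) and alg-1 (chrX:13955408-13955437, plus strand) are shown as 30 bases each, with the summit base in capitals.

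hrde-1 3' UTR: agatactcctgttttAcctgcctttttttc
alg-1 3' UTR: ctggtgagtcttgtaTgttcttgcacttca

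Among the germline genes, prg-1, which encodes the Piwi protein of the piRNA pathway, carried the strongest Argonaute peak. The gene (WBGene00004178) lies on chromosome I at 7585329 to 7588367, on the minus strand. Its strongest peak, at 7585247 to 7585616, had a signal of 84.1 and rank 4 of 193 in the optimal list, with a −log10 q of 2.48. The summit fell in the last of 9 exons, 82 bp past the stop codon and 103 bp before the gene end. In replicate 1 the peak at this place had a signal of 38.3 and rank 3, and in replicate 2 a signal of 46.7 and rank 10, with the replicate summits 34 bp apart. It was thus near the top of each list. The neighbouring gene D2030.12 ends tail to tail with prg-1 and overlaps it by 12 bp, so that the summit is closer to the end of D2030.12 than to that of prg-1.

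A further optimal peak of prg-1 lay in exon 4, 45.1% of the way along the gene (7586812 to 7587181). It had a signal of 33.1 and rank 179, close to the lowest signal of the list, 32.6. Replicate 1 had it at rank 68 with a signal of 21.0. Replicate 2 had smaller peaks on both sides of the place, of which the higher had a signal of 13.5 and rank 858, with its summit 149 bp from the optimal one. The combined list added 3 weaker coding peaks in exons 1, 7 and 9, with signals of 23.9, 20.6 and 23.8. The last of these overlaps the 3' UTR peak, and the strongest replicate peaks under both are the same, although replicate 2 also had a separate peak of 17.1 there. Combined peaks of prg-1 therefore lay in exons 1, 4, 7 and 9, with stretches free of peaks between them. The highest was at the end in all lists.

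The gene hrde-1 (WBGene00007624, chromosome III, 4172337 to 4176159, minus strand), which encodes the nuclear Argonaute of inherited germline silencing, had a pair of optimal peaks of nearly the same signal. The peak in the 3' UTR, at 4172318 to 4172687, had a signal of 47.2 and rank 32. Its summit lay 266 bp past the stop codon and 166 bp before the gene end, in the last of 7 exons. Replicate 1 had its peak there at rank 8 with a signal of 30.5, and replicate 2 at rank 93 with a signal of 24.9. The replicate summits were 114 bp apart, on either side of the combined one. The neighbouring gene C16C10.4 ends tail to tail with hrde-1, 113 bp past its end, and the 3' UTR peak extends past the hrde-1 end.

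The other optimal peak of hrde-1, in exon 3 at 4174934 to 4175303, had a signal of 44.8 and rank 40. Its summit was at the same base in the combined list and replicate 1, and 1 bp away in replicate 2. The replicate peaks there were weaker than those at the 3' end, with a signal of 18.0 and rank 191 in replicate 1 and 14.5 and rank 700 in replicate 2. In the sequence printed above, 26 of the 68 codons within 100 bp of this summit encode glycine or arginine (38.2%), against 14.3% over the whole coding sequence.

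The germline gene csr-1 (WBGene00017641, chromosome IV, 7957267 to 7962157, plus strand), whose product holds small RNAs against expressed germline genes, had 4 combined peaks and no optimal one. The strongest, in exon 7 of 13, had a signal of 27.9 and rank 368, with a −log10 q of 0.969. This was the member peak nearest below the optimal threshold, where the lowest optimal signal was 32.6 and the highest signal left out was also 32.6. Replicate 1 had this peak at rank 280 with a signal of 17.0, and replicate 2 at rank 4900 with a signal of 7.89. The strongest peak of csr-1 in replicate 2 was another one, in exon 2, with a signal of 12.4 and rank 1139, and it overlapped no replicate 1 peak. A weaker combined peak (signal 21.5) lay in its 3' UTR, 302 bp past the stop codon. The strongest csr-1 peak thus lay in the middle of the gene in replicate 1 and near the start in replicate 2. The gene overlaps frpr-10 on the same strand.

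**Figure D1:**
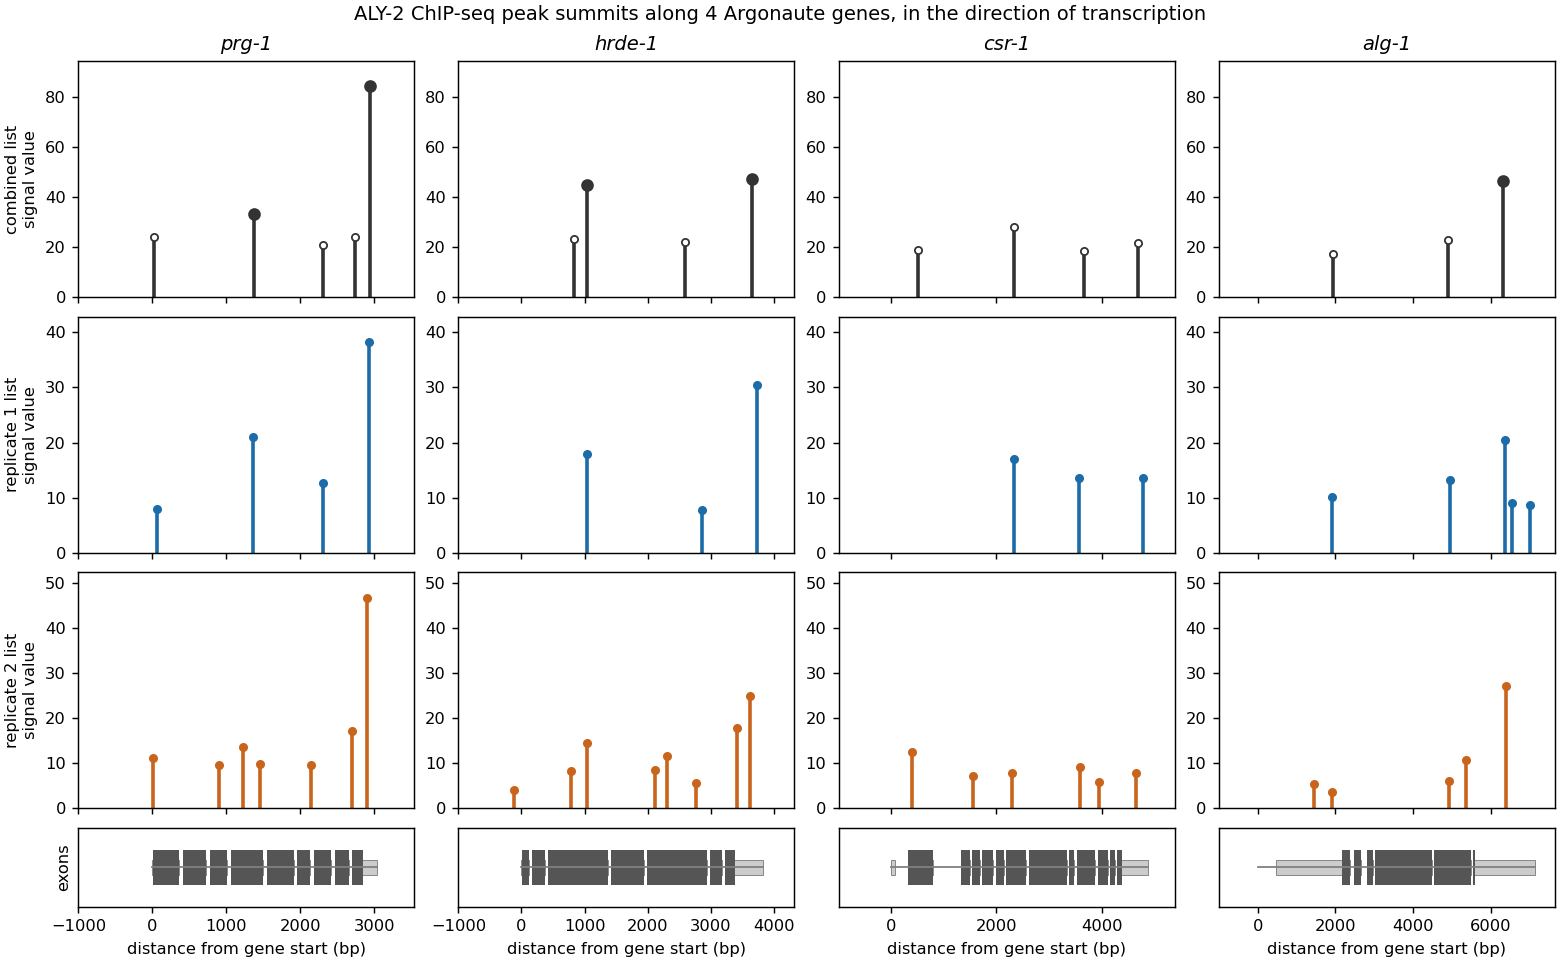
Signal value of each peak (vertical axis, own scale for each list) at its summit, as the distance from the gene start in bp, for prg-1, hrde-1, csr-1 and alg-1. Rows are the combined, replicate 1 and replicate 2 lists; large filled points in the top row are optimal peaks and open points are not, and dark boxes are coding and light boxes untranslated parts of the transcript with the most exon sequence. The tallest peak of prg-1, hrde-1 and alg-1 stands in the 3' UTR in each list, nearer to the gene end in prg-1 and hrde-1 than in alg-1, while csr-1 has no peak that stands out; 1 csr-1 and 1 alg-1 peak with a summit outside the window are not drawn.

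The remaining germline members, wago-4 and wago-1, had no optimal peak. The gene wago-4 (chromosome II, 12919551 to 12923377, plus strand) encodes a secondary small RNA Argonaute of inherited silencing. It had 1 combined peak, in an intron, with a signal of 17.6, rank 2572 and a −log10 q of 0.0571. Its strongest replicate 1 peak had a signal of 15.0 (rank 600) and its strongest replicate 2 peak 11.1 (rank 1683), at different places in the gene. For wago-1 (chromosome I, 7235384 to 7238792, plus strand), a germ granule Argonaute, there was no combined peak. Its only replicate 1 peak had a signal of 7.95 (rank 12698), and its strongest replicate 2 peak, in coding sequence at 89.0% of the gene, had 9.61 (rank 2646). So wago-1 stood higher in the replicate 2 list than in that of replicate 1.

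Of the somatic genes, alg-1, one of the main microRNA Argonautes, was the only one with an optimal peak. The gene (WBGene00000105) lies on chromosome X at 13949110 to 13956261, on the plus strand, and has a long 3' UTR of up to 1554 bp. The peak, at 13955238 to 13955607, had a signal of 46.2 and rank 36, and its summit lay 716 bp past the stop codon and 838 bp before the gene end. It therefore stood inside the 3' UTR, not at the end of the gene as in prg-1 and hrde-1. Replicate 1 had it at rank 86 with a signal of 20.5 and replicate 2 at rank 63 with 27.0, with summits 43 bp apart. The combined list had 2 further alg-1 peaks, in a coding exon (signal 22.9) and in the 5' UTR (17.1). The next protein-coding gene past the alg-1 end, syx-2 on the same strand, lay 3887 bp away.

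The paralogue alg-2 (WBGene00000106, chromosome II, 873212 to 879885, plus strand), which also carries microRNAs, had 1 combined peak. This peak, in coding exon 6 of 7, had a signal of 16.7 and a −log10 q of 0.0252. Its rank was 3244 of 3341, near the bottom of the list. Replicate 2 had it at rank 1618 with a signal of 11.2, and replicate 1 had no peak there. In the alg-2 3' UTR there were weak peaks, of 9.38 in replicate 1 (rank 7123) and of 4.50 and 3.76 in replicate 2. The place that was strongest in alg-1 was thus weak in alg-2, in both replicates.

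The coding sequences of the paralogues alg-1 and alg-2 were aligned, and 78.5% of 2718 aligned bases were identical, with a longest identical run of 26 bp. The strongest coding peaks of both genes in replicate 2, with signals of 10.7 at alg-1 and 11.2 at alg-2, lay at partner places. Replicate 1 and the combined list had no peak at this alg-1 place, and replicate 1 had no coding peak at alg-2. Their coding peaks of alg-1 lay at 69.2% and 68.5% of the gene, against 75.0% for this one. In replicate 2 the alg-1 summit aligned to a base 87 bp from the alg-2 summit, and 247 aligned bases lay under both peaks. Of these, 78.1% were identical, with no identical run over 11 bp. A stretch of 90 without a gap is shown with differing bases in capitals, from chrX:13954370-13954459 and chrII:877734-877823, both on the plus strand. They differ at 15 bases. No reads were examined here, and whether reads of one gene were placed on the other was not tested.

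alg-1: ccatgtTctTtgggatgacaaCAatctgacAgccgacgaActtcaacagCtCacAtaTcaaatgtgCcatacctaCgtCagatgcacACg
alg-2: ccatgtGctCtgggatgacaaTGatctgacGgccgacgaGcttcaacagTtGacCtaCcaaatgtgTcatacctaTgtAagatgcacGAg

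The third somatic gene, nrde-3 (chromosome X, 372235 to 376900, plus strand), a nuclear Argonaute of somatic RNA interference, had no combined peak. Its only replicate 1 peak, in coding sequence, had a signal of 10.6 (rank 4229), and its strongest replicate 2 peak had 4.87 (rank 15211). Of the genes in neither class, ergo-1 (chromosome V, 1008803 to 1018352, plus strand) had 2 combined peaks. They lay in an intron (signal 17.7, rank 2532) and 322 bp downstream of the gene (17.4, rank 2691). Both replicates listed a peak at each place, but the −log10 q of the combined peaks was low, 0.0595 and 0.0418. The downstream one lay within the body of pei-2, which ends tail to tail with ergo-1. For rde-1 (chromosome V, 9987916 to 9991642, minus strand), the Argonaute of the response to double-stranded RNA, there was no combined peak, and the strongest replicate peaks were 10.4 (rank 4717) and 4.89 (rank 15111). In replicate 2, nrde-3 and rde-1 were the lowest of the 10 genes.

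Set side by side, 2 of 5 germline and 1 of 3 somatic Argonaute genes had an optimal peak, and 0 of the 2 others. At these sizes the counts give no basis to call the classes different. Combined peaks were found at 4 of 5 germline and 2 of 3 somatic genes. The median of the highest signal was 17.0 for the germline and 10.6 for the somatic genes in replicate 1, and 12.4 and 11.2 in replicate 2. The classes overlapped in both: alg-1 was above csr-1, wago-4 and wago-1 in each replicate, and wago-1 was below all 3 somatic genes in replicate 1. The median number of peaks per kb of window was 0.564 for germline and 0.162 for somatic genes in replicate 1, and 0.939 and 0.489 in replicate 2. Of the 45 pairs of members, 37 had the same order by highest signal in both replicates.

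**Figure D2:**
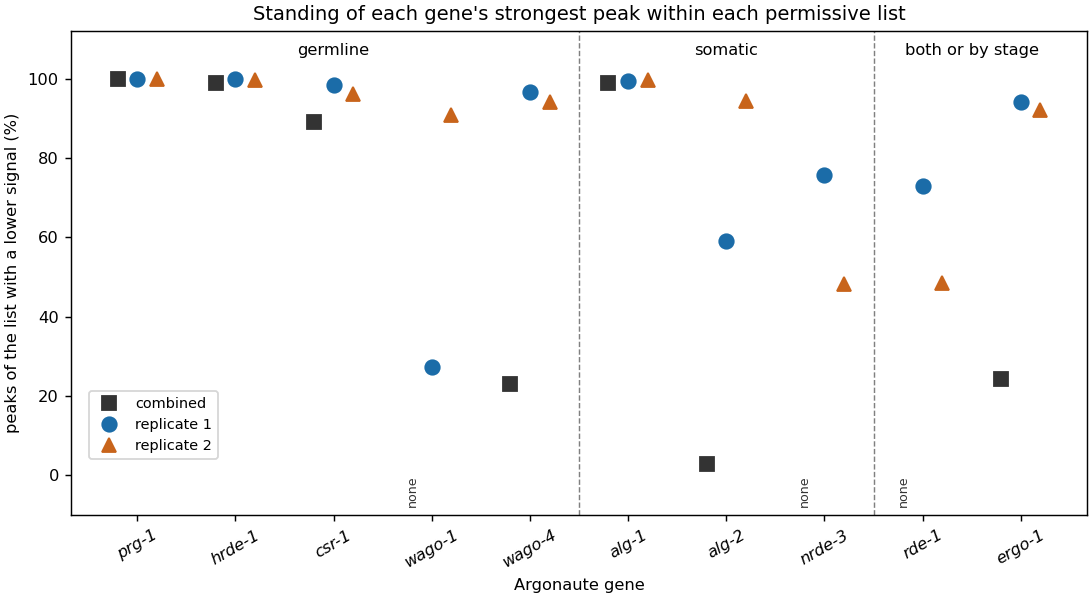
Share of the peaks in each permissive list that had a lower signal than the strongest peak of each Argonaute gene (vertical axis, %), for the combined list (squares), replicate 1 (circles) and replicate 2 (triangles). The genes prg-1, hrde-1 and alg-1 sit near 100 in every list, in both classes, while wago-1, nrde-3 and rde-1 have no combined peak (marked none).

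Every one of the 10 genes had some peak in each replicate list, which is common in lists that hold background as well as peaks. A replicate 1 peak was found at 55.6% of all protein-coding genes and a replicate 2 peak at 69%. A combined peak was found at 7 of the 10 members, against 16.1% of protein-coding genes and 22.4% of those in the members' length range. In peaks per kb of window, the members had a median of 0.473 in replicate 1 and 0.790 in replicate 2, where all protein-coding genes had 0.160 and 0.304 and those in the length range 0.187 and 0.312. Outside the windows, the nearest combined peaks lay 492 bp from that of hrde-1 (signal 24.5), 509 bp from that of prg-1 (22.3) and 693 bp from that of alg-1 (17.5). The nearest further optimal peak was 20678 bp away, at wago-4, and at least 37553 bp away from the windows of the 3 genes with optimal peaks.

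Summits at the members mostly fell inside the genes. Of 20 combined peaks at members 12 had the summit in a coding exon, 4 in a 3' UTR, 2 in introns, 1 in a 5' UTR and 1 downstream, and none upstream of a start. Over all protein-coding genes, 26.4% of gene and peak pairs of the combined list had the summit upstream. The end of the gene body, past 80% of its length, held 5 of the members' 20 combined peaks, 34.6% of their 26 replicate 1 peaks and 27.5% of their 51 replicate 2 peaks. The same shares over all protein-coding genes were 18.6%, 14.8% and 15.3%. These shares also count summits outside the body, so they do not compare the spread within it. In the combined list 18.9% of pairs over all protein-coding genes had the summit downstream, besides the 26.4% upstream. For the strongest peak of a gene, all 3 members with an optimal peak had it past 80% of the body, against 21.7% of the 253 genes with an optimal peak. With the combined list it was 3 of 7 members, against 17.4% of genes. Both backgrounds include genes whose strongest summit lay outside the body. The positions are part of what the choice of members used, and peaks of 1 gene share reads and are not independent.

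**Figure D3:**
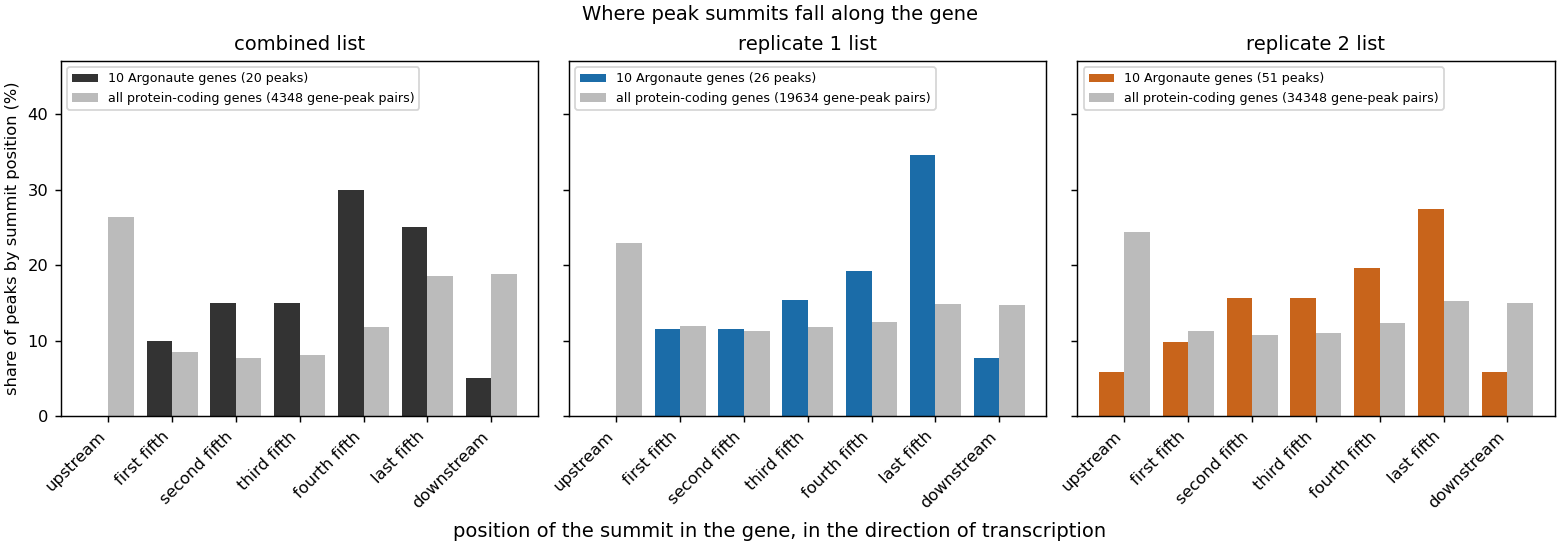
Share of peaks by the place of the summit along the gene (vertical axis, %), for the 10 Argonaute genes (coloured bars) and all protein-coding genes (grey bars), in the combined, replicate 1 and replicate 2 lists. The body is divided into 5 equal parts in the direction of transcription. The members have few or no summits upstream. Past 80% of the body their share is 25%, 34.6% and 27.5% in that order of lists, against 18.6%, 14.8% and 15.3%. The grey bars include many summits outside the body, so these shares do not compare the spread within it.

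Among optimal peaks with the summit in the 3' UTR of any protein-coding gene, of which there were 39, those of prg-1, hrde-1 and alg-1 ranked 1, 9 and 11 by signal. Having several optimal peaks was rare: 25 of 19973 protein-coding genes had 2 or more in their window (0.125%), and in 15 of them at least 2 summits lay inside the body, prg-1 and hrde-1 included. That count was made after the values were seen. The 4 genes with 3 each were fasn-1, vgln-1, frm-1 and unc-44, the shortest of them, vgln-1, being 4538 bp long.

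In base composition, the 3' UTR summits differed among themselves. Within 100 bp on each side of the summit, GC content was 30.8% at prg-1, 31.8% at hrde-1 and 33.3% at csr-1, and 42.3% at alg-1. At the coding peaks of prg-1 and hrde-1 in the optimal list it was 48.3% and 50.2%. The median over all 193 optimal peaks was 42.3%, with a range of 25.9 to 59.2%. Gene bodies of the 7 members with a combined peak ran from 39.6 to 45.3%. The 5 optimal peaks of the Argonaute genes thus ran from 30.8 to 50.2% GC.

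Codon content was counted after the hrde-1 sequence had been seen. Windows ran 100 bases to each side of the summit along the coding sequence, introns left out. Of the 12 combined peaks with a coding summit, 3 had over 30% glycine and arginine codons in this window. They were the hrde-1 peak above, the exon 1 peak of prg-1 (14 of 39 codons) and the first coding peak of csr-1 (23 of 68). The prg-1 window is shorter because it was cut at the start codon. The last pair of these stood mainly on replicate 2: in replicate 1 the prg-1 peak had a signal of 7.91 and rank 12877, and csr-1 had no peak there, against rank 1684 and rank 1139 in replicate 2. The other 9 lay between 5.88 and 19.1%, and the whole coding sequences between 12.6 and 15.1%. In hrde-1 and csr-1 the window with the most such codons held 35 of 68, so the summits were not at the richest place. In prg-1 the exon 1 window was the richest of its size.

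Of the 20 combined peaks at members 17 overlapped a peak in both replicate lists (85.0%), where 72.0% of all combined peaks did. The strongest overlapping summits of the replicates were a median of 43 bp apart at the members and 75 bp over all combined peaks found in both. All 5 optimal peaks of the members were found in both replicates, as were 184 of all 193. The combined list is made from the same reads, so this overlap is in part fixed, and neighbouring combined peaks can share 1 replicate peak.

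**Figure D4:**
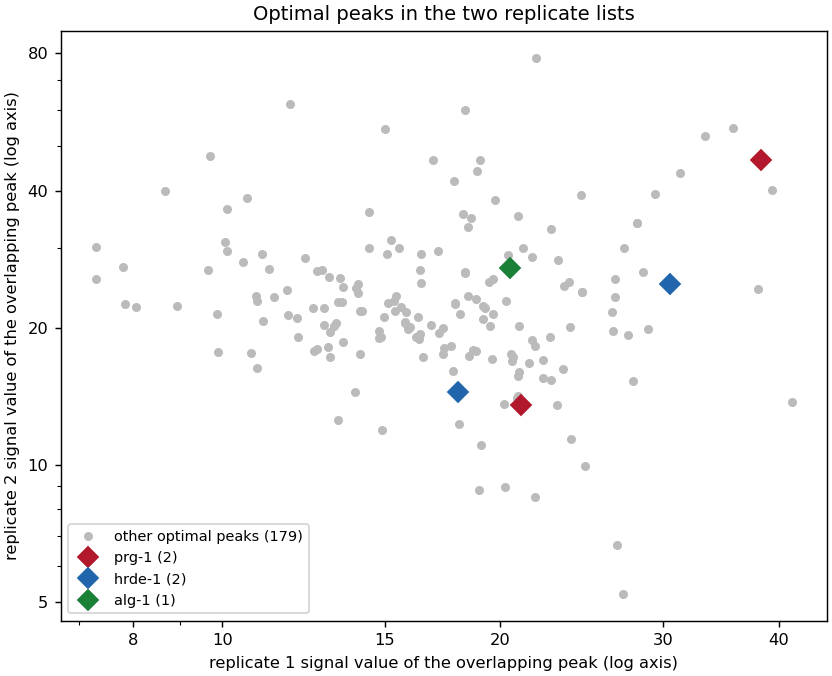
Signal value of the strongest overlapping peak in replicate 1 (horizontal, log axis) and replicate 2 (vertical, log axis) for the optimal peaks found in both lists. The 3' UTR peak of prg-1 lies among the highest in both (38.3 and 46.7), while the coding peaks of prg-1 and hrde-1 lie low in replicate 2 (13.5 and 14.5).

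The genes whose strongest optimal peak was most like that of a member were found by distance over 4 scaled measures: signal, share of each replicate list with a lower signal and place in the gene, among 240 genes. For hrde-1 they were vha-13, which encodes a subunit of the vacuolar proton pump (signal 46.9, distance 0.0546), and ahcy-1, which encodes S-adenosylhomocysteine hydrolase (47.6, distance 0.0839), both with the summit in the 3' UTR. For alg-1 they were catp-8, a P-type ATPase gene (45.7, distance 0.106), and again vha-13 (distance 0.126). The catp-8 summit lay in an intron, at 84.7% of the gene. For prg-1 they were top-2, the topoisomerase II gene (76.9, distance 0.552), and hsp-1, an Hsp70 chaperone gene (91.7, distance 0.579), both with the summit just downstream of the gene end. The distances to prg-1 were thus larger than those to hrde-1 and alg-1.

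Other genes of small RNA pathways carried no optimal peak. Of 75 such genes found in the annotation, 0 had one, where 1.27% of all protein-coding genes did, and 21 (28.0%) had a combined peak, against 16.1%. In the replicate lists it was 53 genes (70.7%) in replicate 1 and 68 (90.7%) in replicate 2, against 55.6% and 69%. Protein-coding genes of the members' length range had 1.78% (optimal), 22.4% (combined), 72.4% (replicate 1) and 84.7% (replicate 2). Against these, the pathway genes were lower in replicate 1 and higher in the combined and replicate 2 lists, and they were not matched by length. With an optimal share this low, 0 of 75 gives no basis to call the pathway genes different. Among 10 further Argonaute genes, 1 had a combined peak: ppw-1, with a signal of 19.4 (rank 1708). Of the others, ppw-2 had a replicate 2 peak of 15.9 (rank 522) and vsra-1 a replicate 1 peak of 13.2 (rank 1346). No peak was listed in either replicate at wago-10 and sago-2. Combined peaks were found at 5 of 8 genes of the microRNA machinery, 2 of 13 of RNA interference and the mutator complex, and 4 of 12 of RNA-dependent RNA polymerase modules. They were also found at 2 of 14 piRNA genes, 3 of 7 of nuclear silencing and 4 of 11 of germ granules.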

How the data were processed

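The authors' deposited ce11 peak lists were used: 1 for each replicate and 1 for both combined, which hold permissive peaks and background, and 1 past the optimal threshold, per the deposited file names and descriptions. The deposited signal value per peak has no stated scale. The authors' lists also give each peak a −log10 q-value. Which peak caller and aligner made the lists is not stated in the files or labels. Each column used belongs to 1 replicate or to both pooled. The authors' ce10 lists were not used, since no ce10 annotation was at hand. The labels call the samples biological replicates 1 and 2, each with its own biosample.

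Genes came from Ensembl release 115 (WBcel235), sequences from the RefSeq copy of the same assembly. All peaks lay within its chromosomes, and the 10 coding sequences began with a start codon and ended with a stop codon. A peak counted with an overlap of at least 1 bp. Ranks follow signal within a list. Gene position runs from the annotated start to end along the strand. The place of a summit was taken over all transcripts, coding exon before UTR before intron. Exons were counted in the transcript with the most exon sequence. Of 80 listed pathway genes 75 were found by symbol. The members and lists were chosen with earlier results of these data known. Named genes were the members, pathway genes with an optimal peak, genes holding a member's optimal summit (none) and the nearest genes by likeness. All others were chosen after their values were seen. No test was made. The assignment was tested on peaks planted at known places, and 200 of 200 were found. The coding sequences of alg-1 and alg-2 were aligned globally with Biopython 1.88. Python 3.11.15 ran the counts and matplotlib 3.10.9 drew the plots. Alternatives were other windows, summit rules, thresholds, single replicates, backgrounds and classes.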

Additional observations from a re-analysis of the deposited data

How the results depend on the processing

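No paired analysis was possible because a single group was profiled. Read depth was not known, and its limits on these counts were not assessed. The members with an optimal peak were prg-1, hrde-1 and alg-1 with the summit in the window, with the gene body alone, with 2000 bp upstream and 1000 bp downstream, and with the 193 strongest peaks of either replicate alone; 3 members also had a peak at or above the median optimal signal. Counting only summits nearest to the end of the gene left hrde-1 and alg-1, since D2030.12 ends nearer to the prg-1 summit. Pathway genes with an optimal peak went from 0 to 1 with the wider window (mut-15). Without a replicate they were 0 to 1, glh-1 being the 1 with replicate 2 alone. Counting ergo-1, rde-1 or nrde-3 in another class, or adding further Argonaute genes, moved no count of germline or somatic genes with an optimal peak. The background share with all annotated nuclear genes was 0.795% in the optimal, 9.93% in the combined, 39.8% in the replicate 1 and 51.0% in the replicate 2 list. With protein-coding genes of the members' length, chosen after seeing the data, it was 1.78%, 22.4%, 72.4% and 84.7%.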

Other observations

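Of the 75 other small RNA pathway genes, 21 had a combined peak (28.0%). The share was 16.1% of all protein-coding genes and 22.4% of those in the members' length range. The 6 with the highest combined signal are given here, all below the lowest optimal signal of 32.6 and chosen after their values were seen. The gene ain-1, which encodes a GW182-like partner of the microRNA Argonautes, had a combined signal of 31.7 (rank 211), with the summit upstream of the gene. For cgh-1, a DEAD-box helicase gene, it was 31.2 (rank 224), also upstream. The germ granule helicase gene glh-1 had 30.9 (rank 233) in a coding exon, while its strongest replicate peaks had rank 176 in replicate 2 and rank 2672 in replicate 1. For nrde-2, whose product acts with HRDE-1 and NRDE-3 in nuclear silencing, it was 29.2 (rank 306), and for znfx-1, a germ granule helicase gene of inherited silencing, 28.3 (rank 350), both in coding exons. The TRIM-NHL gene nhl-2 had 28.8 (rank 324), just downstream of its end. These places are those of the combined list, and the strongest replicate peak was not always at the same place. In replicate 1 it lay downstream of ain-1 and in a coding exon of cgh-1, and in replicate 2 it lay upstream of nhl-2. For glh-1 it lay at 94.3% of the gene in replicate 1, against 59.1% in the combined list. For znfx-1 it lay at 86.1% of the gene in replicate 2, against 35.7% in the combined list.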
